A study of Mus musculus with 8 samples.

Results

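Total RNA libraries were set against polyA-selected (mRNA) libraries of the same kind of cell, to see which transcripts polyA selection kept and which it lost. The comparison took 8 of the 8 libraries of the series: 4 made from total RNA and 4 from polyA-selected RNA, chosen by the ending of their names. Only rows with an Ensembl gene identifier entered, 37991 in all, of which 23020 had a count in at least 1 library and 11828 were tested.

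The cells were Flt3- LSK cells, a sorted bone marrow fraction (lineage-negative, Sca-1 positive, Kit positive) in which blood stem cells and early progenitors are found. The mice were C57BL/6J. Each kind of library held 2 WT samples (Runx1 f/f, a floxed and undeleted allele) and 2 samples labelled Mut (Runx1 deficient), with 24000 sorted cells a sample and ERCC spike-in RNA in all of them. The sources used here do not say how the deletion was driven, how old the mice were, or whether samples came from separate animals or pools. The p-values therefore rest on the spread of these libraries alone, part of which may be technical. A total RNA and an mRNA library of the same name (WT1, WT2, Mut1, Mut2) were read as coming from 1 sorted sample. Values per library are given below in that order.

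Most protein-coding transcripts end in a polyA tail, and oligo-dT beads pull RNA out by that tail. Replication-dependent histone mRNAs, which are made in S phase from the histone gene clusters, end instead in a conserved stem-loop. Small nuclear and nucleolar RNAs, 7SK, the RNA parts of RNase P and RNase MRP, Y RNAs and vault RNAs are trimmed to defined ends and carry no long tail. Mitochondrial transcripts carry short tails, and Malat1 is closed by a triple helix formed by its own 3′ end.

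The sequences that set the main classes apart are the histone 3′ ends and the small RNA genes. They are shown as GENCODE M21 (GRCm38) transcripts, 5′ to 3′, in DNA letters. Capitals mark the 16 bases that matched the histone stem-loop pattern GGNNNTTNTNANNGCC, searched on the transcript strand, with 5 bases on either side. The first 4 lines belong to genes with log2 fold changes of 7.36 to 9.06 between total RNA and mRNA libraries, and the last 3 to genes with 1.51 to 4.16.
Hist1h4f: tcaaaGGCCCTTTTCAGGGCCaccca
Hist1h4d: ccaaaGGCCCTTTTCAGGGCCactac
Hist1h1d: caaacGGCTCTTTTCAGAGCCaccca
Hist1h1e: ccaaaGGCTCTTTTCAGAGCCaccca
Hist1h1c: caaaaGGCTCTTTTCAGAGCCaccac
Hist1h4i: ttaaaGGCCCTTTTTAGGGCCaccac
Hist3h2a: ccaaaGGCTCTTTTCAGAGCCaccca

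The 16 bases of Hist3h2a and Hist1h1c, from the second set, were the same as those of Hist1h1d and Hist1h1e, from the first. The pattern was present in 36 of 57 histone cluster genes (63.2%) and in 374 of 20160 other protein-coding genes (1.86%). Its absence says only that these letters are not in the annotated transcript, since several histone models stop at the coding end.

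A pair of snoRNAs and an snRNA stand for the trimmed RNAs. Snord118 and Snord17 are small nucleolar RNAs of the C/D box type, in which capitals mark a TGATGA (C box) and the last CTGA (D box). In Rnu12, the U12 RNA of the minor spliceosome, capitals mark ATTTTTG, a run of the Sm-site type. TGATGA was found in 14.3% of 1192 entries typed as snoRNA against 1.44% of 1110 typed as miRNA, and ATTTTTG in 3.41% of 1086 entries typed as snRNA.
Snord118: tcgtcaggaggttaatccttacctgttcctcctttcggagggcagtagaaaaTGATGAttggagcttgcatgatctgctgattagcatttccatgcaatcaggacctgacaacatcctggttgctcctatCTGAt
Snord17: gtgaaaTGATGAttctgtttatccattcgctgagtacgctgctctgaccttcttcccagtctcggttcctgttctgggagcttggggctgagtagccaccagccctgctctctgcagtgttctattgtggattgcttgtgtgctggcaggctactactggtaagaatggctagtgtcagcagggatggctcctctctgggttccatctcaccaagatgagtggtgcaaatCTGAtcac
Rnu12: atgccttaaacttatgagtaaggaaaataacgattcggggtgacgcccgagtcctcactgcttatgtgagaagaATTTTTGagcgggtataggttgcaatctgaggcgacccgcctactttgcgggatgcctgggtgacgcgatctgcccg

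The kinds of library differed in depth. Gene counts ran from 35096252 to 37924699 in mRNA libraries and from 967694 to 1218437 in total RNA libraries, in which separate rRNA rows took 93.3 to 94.5% of all counts. The 10 markers of the LSK gate and of stem cells (among them Kit, Ly6a and Meis1) summed to 2883 to 3277 CPM in mRNA and 2423 to 2919 CPM in total RNA libraries, where CPM is the count scaled to a common library size of 1e6 gene counts after TMM scaling. Flt3 stood at 52.6 to 143 and 55.3 to 118 CPM. Summed markers of B cells, T cells and erythroid cells reached at most 27.5 CPM in any library, and neutrophil markers reached 389 CPM in 1 mRNA library. Those of macrophages reached at most 59.8 CPM and those of megakaryocytes 93.3 CPM. Markers of stroma and endothelium summed to 111 to 209 CPM in mRNA and 93.4 to 223 CPM in total RNA libraries. None of the marker genes was called. Runx1 itself was higher in the libraries labelled Mut (687 and 863 CPM against 183 and 191 CPM in mRNA, and 899 and 989 CPM against 253 and 258 CPM in total RNA), so that its level goes against a reading of that label as loss of the transcript. Which exons were deleted is not given, and counts over the others check nothing.

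Most genes differed little between the kinds of library. The median log2 fold change, total RNA over mRNA throughout, was -0.03, and 93.3% of the 11828 genes lay within 1 log2 unit of 0. The call used here asked for both an adjusted p under 0.05 and a difference of at least 2-fold. By that rule 639 genes (5.4%) were higher and 44 (0.372%) lower in total RNA libraries, 683 (5.77%) in all. For 2380 genes (20.1%), the 4 libraries of one kind all lay above the 4 of the other. With the sorted sample as a block, 673 genes were higher and 72 lower. Of the genes called higher, 108 had a log2 fold change of at least 5 and 440 had one under 2.

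Scaling sets the zero line of these values. TMM takes most genes as unchanged. Without it the median of all genes was -0.30, and 467 genes were higher and 276 lower. Scaled to the ERCC spike-ins the median was -0.84, with 153 higher and 40 lower. ERCC counts varied within each kind, from 0.313 to 0.891% of gene counts in mRNA and from 0.414 to 1.36% in total RNA libraries. This scaling carries that spread into every gene. Differences below are therefore relative to the bulk of the genes, and where the median of a class turned under another scaling, this is said beside it.

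**Figure D1:**
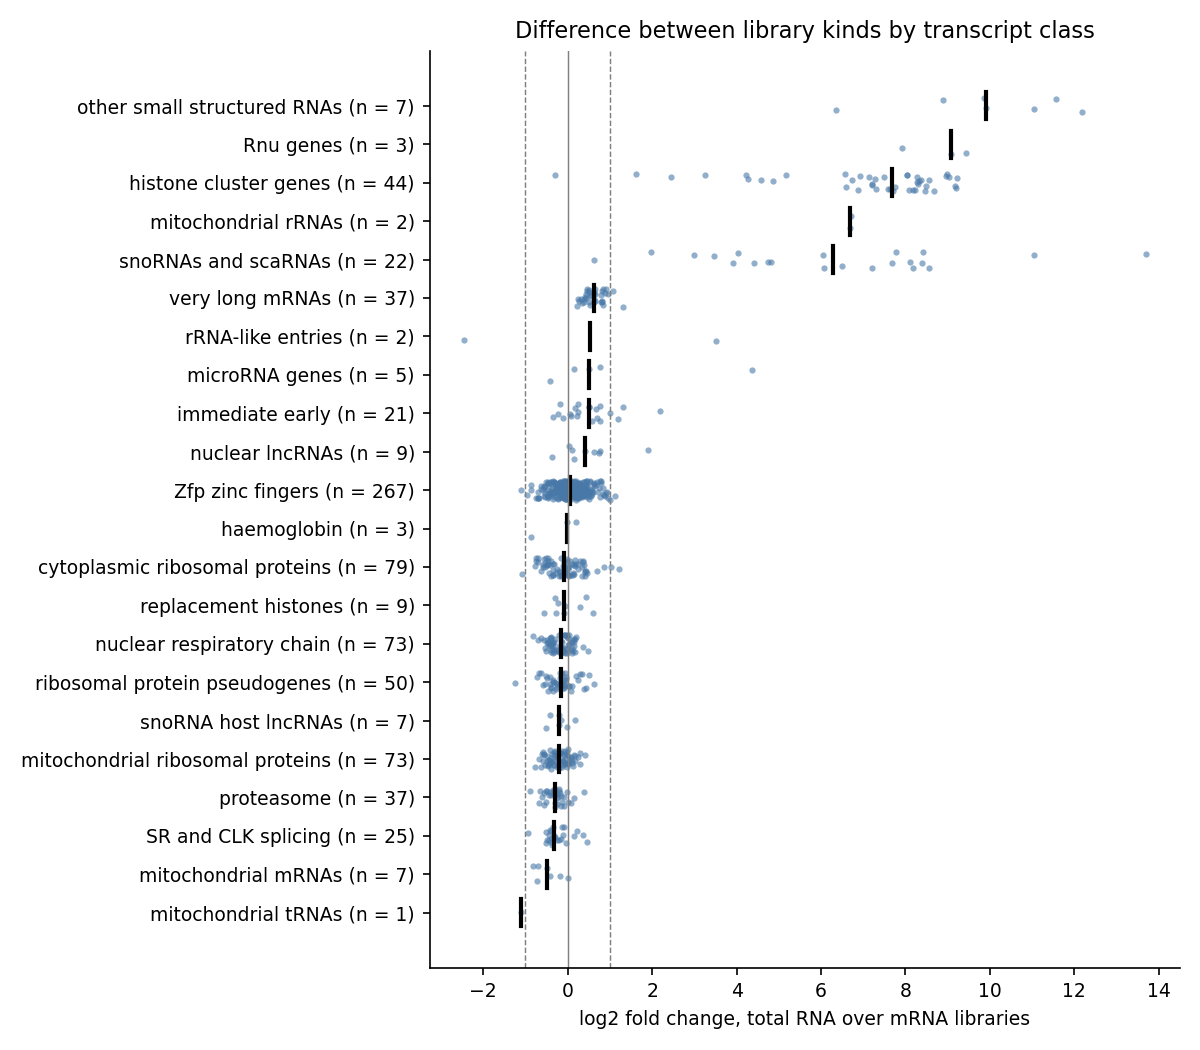
Log2 fold change (x axis, total RNA over mRNA libraries) of each tested member (points) of each transcript class (y axis, with the number tested), with the class median as a black bar and dashed lines at 1 log2 unit either way. Tested small RNAs, histone cluster genes and mitochondrial rRNAs lie several log2 units above 0, though most of the small RNAs and histone genes shown were tested only because they are high in total RNA, and classes of polyadenylated mRNAs centre within 1 unit of 0.

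Of the classes compared, 5 without a long polyA tail made up 9.46 to 10.8% of the gene counts in total RNA libraries, against 0.0882 to 0.111% in mRNA libraries. They were histone cluster genes, snoRNAs with scaRNAs, Rnu genes, other small structured RNAs and the mitochondrial rRNAs, 197 genes in all. These shares take every member, with no filter on level. That matters here because many members passed the filter of a mean of 5 CPM only through the total RNA libraries and so had to differ: 37 of the 44 histone genes tested, and 19 of 22 snoRNAs and scaRNAs. For histone cluster genes, small RNAs and microRNA genes the counts of calls, the log2 fold changes and the adjusted p-values below therefore come from a fit with no filter, in which 1023 of 23020 genes (4.44%) were higher and 143 (0.621%) lower. Adjusted p-values of the 2 edgeR fits are not comparable. For Rpph1, the RNA of RNase P, they were 4.87e-30 with no filter and 3.82e-11 under the filter, at log2 fold changes of 9.74 and 9.86.

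**Figure D2:**
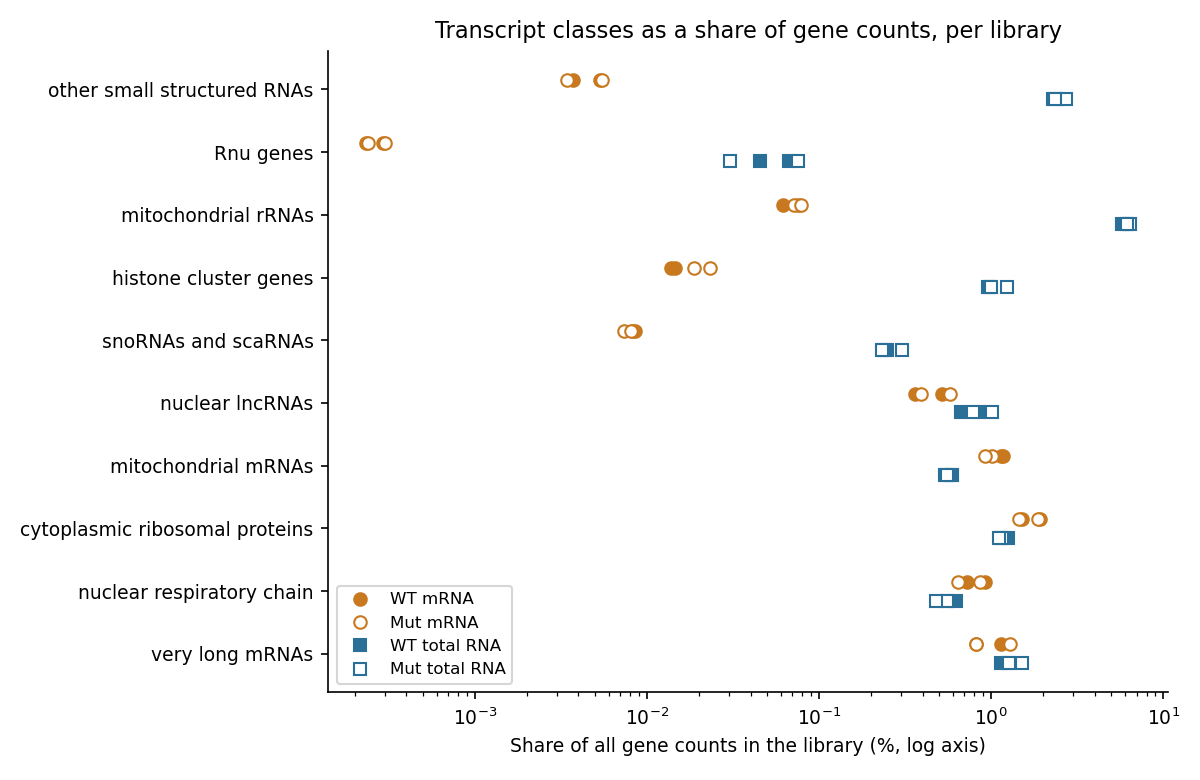
Share of all gene counts taken by 10 transcript classes (x axis, %, log scale) in each of the 8 libraries (orange circles mRNA, blue squares total RNA, filled WT, open Mut-labelled). Among the classes shown the kinds of library stand furthest apart for other small structured RNAs (543-fold between the means), Rnu genes (204-fold) and mitochondrial rRNAs (85.4-fold), and they overlap for very long mRNAs.

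Histone cluster genes were among the transcripts that polyA selection lost. Together they took 0.956, 0.990, 1.23 and 0.997% of gene counts in total RNA libraries and 0.0145, 0.0138, 0.0233 and 0.0187% in mRNA libraries. Of 57 genes 51 had a count, and in 46 of those 51 all 4 total RNA libraries lay above all 4 mRNA libraries. Over the 11828 genes tested under the filter, the kinds lay apart in 20.1%, in either direction. In the fit with no filter 47 of the 51 were higher and 0 lower. The 4 most abundant were 3 linker histones H1 and a core histone H4.

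Hist1h1c, a linker histone, was at 38.4, 47.1, 81.7 and 62.0 CPM in mRNA libraries and 880, 919, 1400 and 1184 CPM in total RNA libraries. Hist1h1d, another linker histone, was at 2.12, 3.96, 4.64 and 5.82 CPM against 710, 704, 994 and 836 CPM. Hist1h4d, a core histone H4, was at 0.966, 1.38, 2.07 and 2.16 CPM against 776, 690, 984 and 739 CPM. In all 3 genes every total RNA library lay far above every mRNA library. The log2 fold changes ± SE were 4.16 ± 0.130 for Hist1h1c (adjusted p = 3.83e-24), 7.53 ± 0.174 for Hist1h1d (3.16e-28) and 8.83 ± 0.175 for Hist1h4d (9.24e-30). The linker histone Hist1h1e rose by 7.36 ± 0.162 on the log2 scale (adjusted p = 8.04e-29).

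The histone cluster genes with a count spread over a wide range. Hist1h4a rose most, from 0.266, 0.603, 0.630 and 0.502 CPM to 240, 305, 350 and 321 CPM, a log2 fold change of 9.11. Hist1h2bk, at 9.08, and Hist1h4f, at 9.06, were next. At the other end stood 11 genes with a log2 fold change under 5. Of these, Hist1h2bg had 4.75, Hist1h2bc 4.46, Hist1h1c 4.16, Hist1h2ac 4.10, Hist3h2ba 3.13, Hist1h2aj 3.02, Hist1h4i 2.33 and Hist3h2a 1.51. Hist1h1t and Hist1h2br, with few counts, and Hist2h2be were not called. Hist2h2be stood at 17.4, 14.5, 16.7 and 15.8 CPM in mRNA and 5.30, 9.76, 19.99 and 19.2 CPM in total RNA libraries. Its log2 fold change was -0.43 ± 0.295 (adjusted p = 0.395). The total RNA values rest on few counts, since 1 count was worth 0.821 to 1.03 CPM there. Both WT pairs fell and both Mut-labelled pairs rose. Its kinds of library overlapped. Counts of histone genes may be split between near-identical copies, and their values are uncertain to that extent.

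PolyA signals in the annotated 3′ ends were counted over the same genes. AATAAA or ATTAAA was present in the last 60 bases of an annotated transcript in 16 of 57 histone cluster genes (28.1%), against 84.1% of 20160 other protein-coding genes. Among the 51 histone genes with a count, 15 had the signal, with a median log2 fold change of 6.75 (range -0.43 to 9.11), and 36 did not, with a median of 7.61 (range 3.02 to 9.08). This is a description with no test of the difference. Of the 11 genes under 5, 7 had it, among them Hist2h2be, Hist3h2a, Hist1h4i, Hist3h2ba and Hist1h1c. Hist1h4a, which rose most, also had it, so that the signal alone did not separate the groups. The annotated transcript ran on for 1643 bases past the stem-loop in Hist3h2a and 330 in Hist1h4i, but also for 4884 in Hist1h1d and 770 in Hist1h4d.

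**Figure D3:**
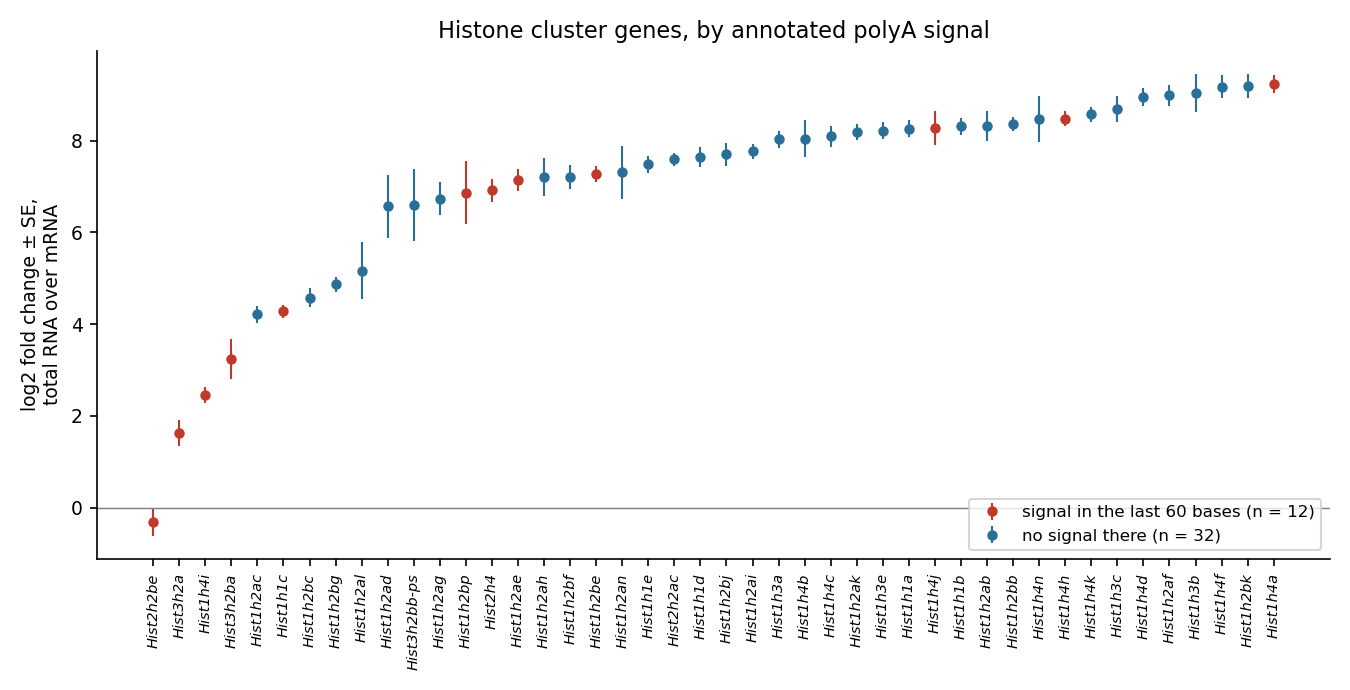
Log2 fold change (y axis, total RNA over mRNA, bars ± SE) of the 44 histone cluster genes tested under the filter (x axis, ordered by value), 37 of which passed it only through total RNA, coloured by whether AATAAA or ATTAAA was found in the last 60 annotated bases. The 4 lowest genes, Hist2h2be, Hist3h2a, Hist1h4i and Hist3h2ba, all hold the signal, and so does the highest, Hist1h4a.

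Replacement histones, variants encoded outside the clusters with mostly polyadenylated mRNAs, gave no calls. Of 9 tested, 0 were called in either direction, and their median was -0.08. Over all tested genes 5.4% were higher and 0.372% lower, so that 0 calls among 9 genes says little. H3f3b, which encodes histone H3.3, was at 636, 611, 847 and 800 CPM in mRNA and 668, 760, 1056 and 1104 CPM in total RNA libraries. H2afx (H2A.X) went from 297 ± 55.4 to 453 ± 65.1 CPM, a log2 fold change of 0.61 (adjusted p = 0.0183) that was under the 2-fold bound. H2afy (macroH2A) had -0.30 (adjusted p = 0.0351).

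Small structured RNAs rose furthest. The RNA parts of 7SK, RNase P, RNase MRP, telomerase, Y RNA and vault particles took 2.29, 2.40, 2.73 and 2.34% of gene counts in total RNA libraries and 0.00374, 0.00537, 0.00343 and 0.00545% in mRNA libraries. Of 9 genes with a count, 8 were higher and 0 lower with no filter.

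Rpph1, the RNA of RNase P that trims tRNA 5′ ends, was at 10.6, 15.9, 9.23 and 13.7 CPM in mRNA and 10933, 10881, 13109 and 10950 CPM in total RNA libraries. Rn7sk, the 7SK RNA that holds the elongation factor P-TEFb inactive, was at 17.96, 26.4, 20.1 and 32.3 CPM against 10120, 10896, 13547 and 11098 CPM. Rmrp, the RNA of RNase MRP, was at 4.68, 6.22, 1.84 and 4.21 CPM against 3835, 4080, 4135 and 3902 CPM. In none of the 3 did the libraries of one kind come near those of the other. The log2 fold changes were 9.74 ± 0.187 for Rpph1 (adjusted p = 4.87e-30), 8.76 ± 0.180 for Rn7sk (1.56e-29) and 9.80 ± 0.229 for Rmrp (4.09e-28).

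Less abundant members followed. Terc, the telomerase RNA template, had 0.184 to 0.828 CPM in mRNA and 28.2 to 57.2 CPM in total RNA libraries (log2 fold change 6.23, adjusted p = 2.99e-16). Vaultrc5, a vault RNA, had 0, 0, 6 and 0 counts in mRNA libraries and 144, 118, 141 and 93 counts in the shallower total RNA libraries. The Y RNA Rny1 had 0, 2, 0 and 0 counts against 34, 22, 50 and 47. Each of these was seen in every total RNA library and in few or none of the mRNA libraries, apart from Terc, which was seen in all 8.

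**Figure D4:**
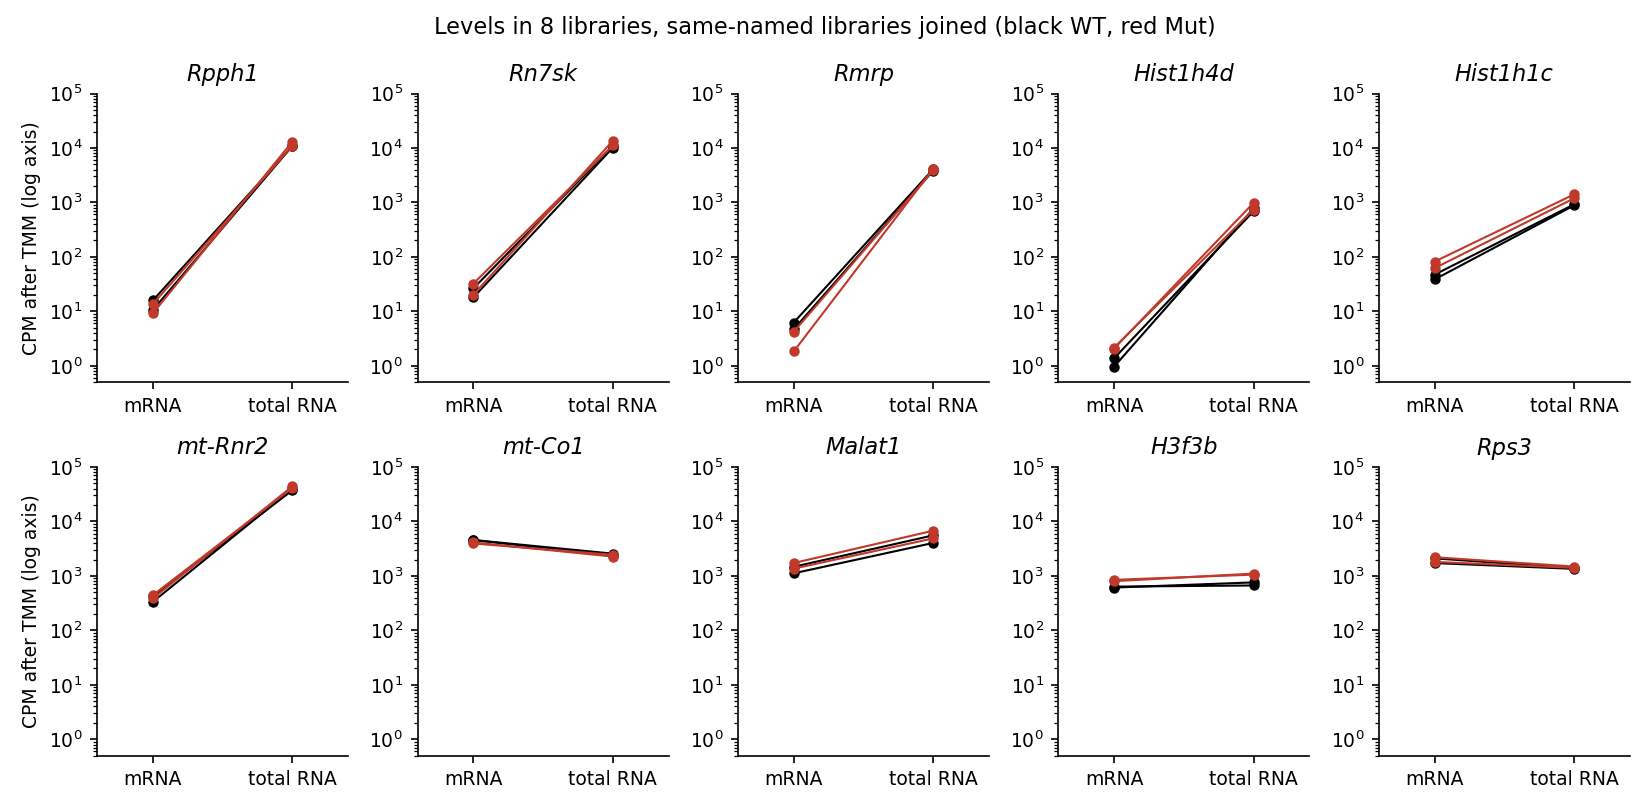
Level (y axis, CPM after TMM scaling, log axis) of 10 transcripts in mRNA and total RNA libraries (x axis), with lines that join same-named libraries (black WT, red Mut-labelled). Rpph1, Rn7sk, Rmrp, Hist1h4d and mt-Rnr2 climb steeply in all 4 pairs, and Malat1 climbs less. By less than 2-fold, mt-Co1 and Rps3 decline and H3f3b rises.

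The small nucleolar RNAs, which guide modification of rRNA, and the scaRNAs, which guide that of snRNAs in Cajal bodies, took 0.250, 0.239, 0.303 and 0.232% of gene counts in total RNA libraries and 0.00830, 0.00855, 0.00736 and 0.00811% in mRNA libraries. Of 120 genes 75 had a count. With no filter 34 of these 75 were higher and 0 lower, beside 4.44% and 0.621% of all genes. In 38 of the 75 all total RNA libraries lay above all mRNA libraries. Over the genes tested under the filter, the kinds lay apart in 20.1%, in either direction. In 1 gene, Snord59a, picked out after its values were seen, the order was the opposite, with 28, 10, 36 and 12 counts in mRNA libraries and 0 in all 4 total RNA libraries, whose depth could not show a level that low. Scarna2 was the most abundant, with 3.57, 3.04, 2.49 and 3.64 CPM in mRNA and 1157, 1196, 1283 and 1163 CPM in total RNA libraries (log2 fold change 8.43 ± 0.159, adjusted p = 4.72e-30). Scarna10 rose by 8.05 and Snord17, shown above, by 7.66 on the log2 scale.

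Snord118, the U8 RNA needed for the large ribosomal subunit, had 0 counts in all 4 mRNA libraries and 83, 48, 119 and 49 counts in total RNA libraries. It was at least 1087-fold higher in total RNA, taking a floor of 3 counts per library for the mRNA side. That bound covers counting error only. Not every member rose as far. Snord104 stood at 13.7, 9.22, 10.4 and 11.1 CPM in mRNA and 17.0, 19.5, 18.8 and 13.7 CPM in total RNA libraries (log2 fold change 0.51, adjusted p = 0.243). Snora31 had 1.85 (adjusted p = 1.01e-05). Many of these genes lie in introns of host genes, and since the strand and overlap settings are not stated, their reads cannot be told apart from those of the host transcript.

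Host genes of snoRNAs, spliced and polyadenylated around those introns, did not rise. Of 7 tested, 0 were called in either direction, with a median of -0.20. At 5.4% higher and 0.372% lower over all tested genes, 0 calls among 7 says little. Gas5 was at 406, 394, 336 and 380 CPM in mRNA and 289, 267, 239 and 262 CPM in total RNA libraries. All 4 total RNA libraries were below all 4 mRNA libraries, by 0.52 on the log2 scale (adjusted p = 0.00327), which is under the 2-fold bound.

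Genes named Rnu were few. With no filter 3 of 5 with a count were higher and 0 lower. Rnu3a, the U3 RNA of pre-rRNA processing (a snoRNA by type, despite its name), had 0.797, 1.09, 0.682 and 0.577 CPM in mRNA and 678, 456, 764 and 291 CPM in total RNA libraries (log2 fold change 9.32, adjusted p = 3.13e-26). Rnu12 had 0, 0.193, 0 and 0.100 CPM against 45.6, 28.2, 70.5 and 33.9 CPM (8.97, adjusted p = 1.49e-16). Rnu11, the other minor spliceosome RNA of the list, rose by 7.81 on the log2 scale. Total RNA libraries labelled with number 1 held more of all 3 than those with number 2 of the same genotype.

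Few microRNA genes were called. With no filter 5 of the 208 with a count were higher and 0 lower, where 4.44% of all genes were higher. The SEs of many were several log2 units, so that few calls do not show that differences are absent. Their median in that fit was 0.77, beside -0.12 for all genes. As means they took 0.0157% of gene counts in total RNA and 0.00939% in mRNA libraries, with overlapping ranges. Of 5 tested under the filter, 1 was higher, Mir1949, with 0 to 36 counts in mRNA and 5 to 12 counts in total RNA libraries. The median of those 5 was 0.51 and turned to -0.51 under ERCC scaling. The list is by name and also holds host genes of microRNAs. Mir17hg and Mir142hg, both typed as lincRNA, were the most abundant of those 5. Mir99ahg, a host gene, was among those higher with no filter (log2 fold change 2.40, adjusted p = 0.0171 by edgeR). These values are thus not about hairpins alone, and no mature microRNA was measured.

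Mitochondrial transcripts went both ways. The 2 mitochondrial rRNAs took 6.13, 5.79, 6.44 and 6.15% of gene counts in total RNA libraries, more than any other class here, and 0.0614, 0.0753, 0.0714 and 0.0787% in mRNA libraries. mt-Rnr2, the large-subunit rRNA, was at 336, 422, 387 and 445 CPM against 39774, 37405, 44313 and 41499 CPM. In the fit under the filter, the log2 fold changes were 6.68 ± 0.115 for mt-Rnr2 and 6.70 ± 0.112 for mt-Rnr1, the small-subunit rRNA (adjusted p = 1.2e-11 for both). These values lay within 1 SE of each other.

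Mitochondrial mRNAs were lower in total RNA libraries, though by less than 2-fold. Of 7 tested, 0 were called, and their median was -0.49. At an adjusted p under 0.05 with no bound on size, 5 of the 7 were lower and 0 higher, where 832 of all 11828 genes (7.03%) were lower and 1376 (11.6%) higher. mt-Co1, a cytochrome oxidase subunit, was at 4558, 4554, 4120 and 3942 CPM in mRNA and 2564, 2352, 2265 and 2439 CPM in total RNA libraries (-0.83 ± 0.083, adjusted p = 5.79e-05). mt-Cytb had -0.72 (adjusted p = 3.69e-04) and mt-Nd1 -0.70 (adjusted p = 0.00153). In these 3 genes all total RNA libraries were below all mRNA libraries. mt-Nd5 had 0.00 ± 0.104 (adjusted p = 0.988), with overlapping libraries. mt-Nd6, the gene of the list on the light strand, had -0.18 (adjusted p = 0.228).

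Part of the mitochondrial genome was barely counted in any library. mt-Co2, mt-Co3 and mt-Atp6, genes that are usually among the most abundant, had 0 to 21 counts a library, and mt-Nd4l 0 to 8, beside 2265 to 4558 CPM for mt-Co1. How reads that map to several places were counted is not stated, so these genes say nothing about polyA selection. Mitochondrial tRNAs took 0.0014 to 0.00283% of gene counts in mRNA and 0.000985 to 0.00248% in total RNA libraries, and with no filter 1 of 18 was higher and 1 lower.

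Of 9 long noncoding RNAs of the nucleus tested, 1 was higher, Malat1, and 0 lower, beside 5.4% and 0.372% of all tested genes. Malat1, a nuclear speckle RNA, was at 1117, 1472, 1362 and 1724 CPM in mRNA and 4030, 5552, 4883 and 6768 CPM in total RNA libraries. All 4 pairs rose, by 1.90 ± 0.152 on the log2 scale (adjusted p = 6.86e-06). Scaled to ERCC the value was 0.99, with an adjusted p = 0.184. Neat1, the scaffold of paraspeckles, went from 385 ± 103 to 645 ± 197 CPM (0.74, adjusted p = 0.0272, under the 2-fold bound). Xist, which coats the inactive X chromosome, was at 2235 ± 622 and 2997 ± 300 CPM (0.42, adjusted p = 0.108). Tug1 had 0.09 and Meg3 -0.36. The class median was 0.42, and turned to -0.51 under ERCC scaling, where that of all genes was -0.84.

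Antisense genes form a group by annotation. Among genes typed as antisense, 27 of 59 tested were higher and 1 lower (Gm15564, below), with a median of 0.65. Among protein-coding genes 460 of 10733 were higher and 26 lower. Only these 59 of 1516 antisense entries passed the filter, and a gene low in mRNA libraries could pass it only through total RNA. How many did so was not counted, so the 2 types cannot be compared by these calls. With no filter antisense entries took means of 0.1785% of gene counts in total RNA and 0.1404% in mRNA libraries. Whether counting used strand is not stated, so reads of an antisense gene and of unspliced RNA of its partner cannot be told apart.

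The 2 entries that hold rRNA-like sequence moved in opposite directions, also under ERCC scaling, where their median turned from 0.53 to -0.37. Lars2, a mitochondrial tRNA synthetase gene with an rRNA-like stretch, was at 1613, 2364, 1852 and 2383 CPM in mRNA and 21936, 24045, 26609 and 21707 CPM in total RNA libraries (3.52 ± 0.143, adjusted p = 8.12e-09). Gm15564 was at 193, 309, 231 and 300 CPM against 58.3, 34.7, 36.5 and 55.8 CPM (-2.47 ± 0.211, adjusted p = 1.38e-05). The total RNA libraries were those in which rRNA rows took over 93% of all counts, and the part of rRNA reads in these entries was not tested.

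The largest fall and 1 of the most abundant rises came from entries with the same bases. Gm23935 and Gm24270 are separate entries typed as miRNA, and all 57 bases are identical, shown in full for that reason.
Gm23935: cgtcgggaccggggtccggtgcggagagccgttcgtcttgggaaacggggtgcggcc
Gm24270: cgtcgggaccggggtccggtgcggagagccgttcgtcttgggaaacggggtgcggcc

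Gm23935 was at 1092, 1690, 1165 and 1665 CPM in mRNA and 31.8, 222, 36.5 and 55.8 CPM in total RNA libraries, a log2 fold change of -4.11 ± 0.483 (adjusted p = 2.27e-04). Gm24270 was at 211, 382, 239 and 368 CPM against 27115, 18537, 21733 and 16546 CPM (6.12 ± 0.254, adjusted p = 1.04e-08). Summed over both, the libraries held 1303, 2073, 1404 and 2033 CPM in mRNA and 27147, 18759, 21769 and 16602 CPM in total RNA. A further entry with the same 57 bases, Gm24245, rose from 0.659 ± 0.409 to 154 ± 11.9 CPM. Reads of these 57 bases alone cannot be assigned to 1 of the entries, so the fall of Gm23935 is not a measurement of that gene's own transcript. Gm24270 and Gm24245 were named after their values were seen.

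Among protein-coding genes outside the histone clusters, differences were small. Of 10691 tested, 419 (3.92%) were higher and 26 lower, and 396 of the 419 had a log2 fold change under 2. The genes called higher were of low level, with a median of 18.04 CPM over the 8 libraries against 43.8 CPM for all of these genes.

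Longer mRNAs were higher in total RNA libraries than shorter ones. By longest annotated spliced length, the median log2 fold change was -0.12 in genes up to 500 bases (17 genes), -0.19 in the next class up to 1000, -0.19 up to 2000, -0.09 up to 4000, 0.09 up to 8000 and 0.39 over 8000 bases (626 genes). The share of genes above 0 went from 29.2% in the class up to 1000 bases to 86.9% over 8000. Across these 10691 genes Spearman's rho was 0.36 with length, 0.24 with GC content and -0.05 with mean level, as a description over genes that share the same 8 libraries. The size of the length pattern differed between pairs: over 8000 bases the medians were 0.48 for WT1, 0.24 for WT2, 0.58 for Mut1 and 0.29 for Mut2.

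**Figure D5:**
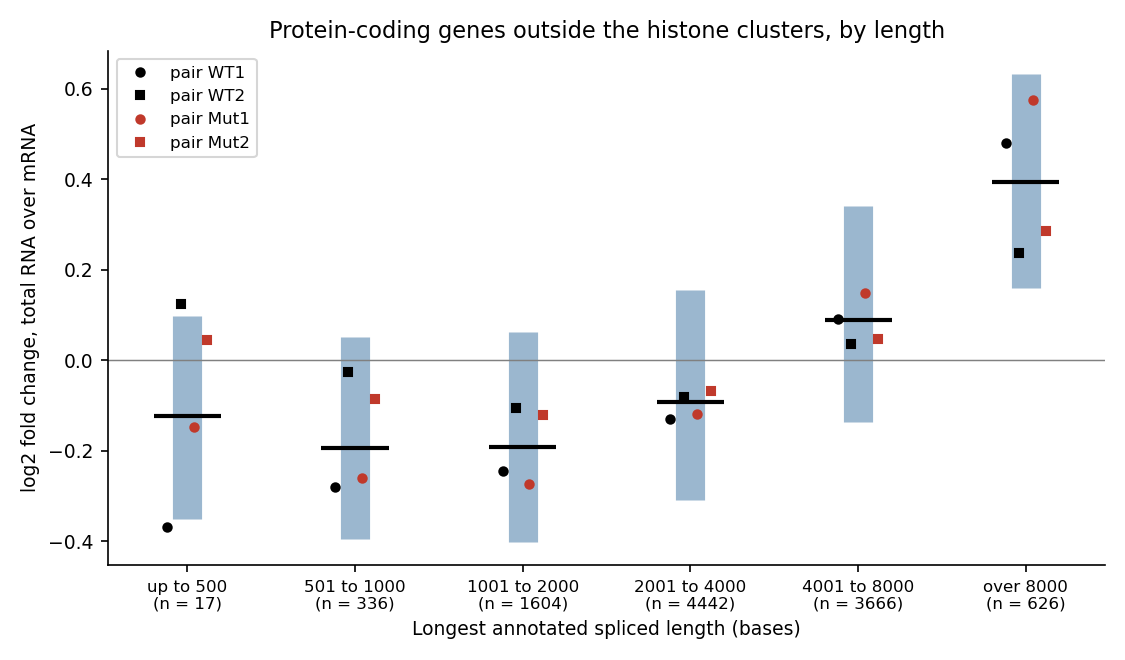
Median log2 fold change (black bars) and quartiles (blue boxes) of protein-coding genes outside the histone clusters (y axis) by longest annotated spliced length (x axis), with the median of each same-named pair as points. Over 1000 bases the medians climb from -0.19 to 0.39, and the pairs WT1 and Mut1 lie further from 0 than WT2 and Mut2 over 8000 bases.

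A list of 37 genes with very long mRNAs gave values on one side of 0. All 37 had a log2 fold change above 0, where 47.2% of all tested genes did, and their median was 0.62. At an adjusted p under 0.05 with no bound on size 22 were higher, where 11.6% of all tested genes were. Of the 37, 2 passed the 2-fold bound: Ahnak (1.06, adjusted p = 0.00315) and Fat1 (1.30, adjusted p = 0.00326). That was 5.41%, the share over all tested genes being 5.4%. Kmt2d, a histone H3 lysine 4 methyltransferase, was at 446, 685, 485 and 930 CPM in mRNA and 992, 1163, 1111 and 1490 CPM in total RNA libraries (0.90, adjusted p = 0.0116). Dync1h1, the dynein heavy chain, had 0.79 (adjusted p = 0.00345) and Huwe1, a ubiquitin ligase, 0.44 (adjusted p = 0.0492). The number past the bound was 7 without WT mRNA library 2, 6 without Mut-labelled mRNA library 2, 1 without WT mRNA library 1 or WT total RNA library 1, and 0 under ERCC scaling or with edgeR's glmTreat, a test against the bound itself. Under ERCC scaling the median of the list turned to -0.33, beside -0.84 for all genes.

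The mRNA libraries varied among themselves in the same respect. The 37 long genes took 0.821, 1.135, 0.819 and 1.29% of gene counts in mRNA libraries and 1.136, 1.26, 1.27 and 1.51% in total RNA libraries, so that Mut-labelled mRNA library 2 lay within the range of the total RNA libraries and WT mRNA library 2 just below it. Cytoplasmic ribosomal protein genes, with short mRNAs, showed the reverse: 1.93, 1.52, 1.87 and 1.46% in mRNA and 1.25, 1.14, 1.16 and 1.11% in total RNA libraries. The part that RNA integrity or library preparation had in this was not tested.

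Lists of short, polyadenylated housekeeping mRNAs lay slightly below 0. Of 79 ribosomal protein genes tested, 2 were higher and 1 lower, beside 5.4% and 0.372% of all tested genes. Their median of -0.08 turned to 0.02 without WT mRNA library 1. Rps27 (1.21), which passed the filter only through total RNA libraries, and Rps4l (1.03) were the genes higher, and Rpl22l1 (-1.09) the one lower. Rps3 was at 1959 ± 229 and 1408 ± 57.8 CPM (-0.48, adjusted p = 0.00931). Reads of these genes may be shared with pseudogenes of the same family, whose 50 tested members had a median of -0.16. Nuclear-encoded respiratory chain subunits (73 tested, median -0.15), mitochondrial ribosomal proteins (73, -0.22) and proteasome subunits (37, -0.29) had 0 calls in either direction. At an adjusted p under 0.05 with no bound on size, 8, 3 and 9 of these were lower and 0 higher, beside 7.03% lower over all tested genes. Atp5a1 of the ATP synthase had -0.36 (adjusted p = 0.0484) and Psmb8 of the immunoproteasome -0.45 (adjusted p = 0.0169).

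Genes with short-lived transcripts or retained introns were mixed. Of 21 immediate early genes 4 were higher and 0 lower, beside 5.4% and 0.372% of all tested genes. Their median of 0.50 turned to -0.53 under ERCC scaling. Jund was at 164, 223, 290 and 294 CPM in mRNA and 330, 450, 521 and 658 CPM in total RNA libraries (1.01, adjusted p = 5.66e-04). Klf2 had 1.31, Klf4 1.20 and Atf3, which passed the filter only through total RNA libraries, 2.18. The 4 calls were 1 without Mut-labelled total RNA library 2, 2 without WT mRNA library 1, WT total RNA library 2 or TMM, 1 in WT libraries alone, and 0 under ERCC scaling or with glmTreat. Jun (0.18, adjusted p = 0.532), Fos (-0.18, adjusted p = 0.805) and Myc (0.05, adjusted p = 0.802) were not called. Fos ranged from 203 to 1019 CPM between mRNA libraries and from 169 to 919 CPM between total RNA libraries, a spread far wider than the difference between kinds. Of 25 SR protein, CLK kinase and related splicing genes, known for introns detained in the nucleus, 0 were called in either direction, and the median was -0.32. Srrm2 had 0.37 and Srsf1 -0.44. Of 267 Zfp zinc finger genes 1 was higher, Zfp462 (1.12), and 0 lower, beside the same shares of 5.4% and 0.372%. Their median of 0.05 turned to -0.21 without TMM and -0.81 under ERCC scaling.

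Falls in total RNA libraries were few and mostly just past 2-fold. Besides the entries above, the largest called falls among named genes with a mean of at least 20 CPM included those of Srp19, a signal recognition particle protein (-1.27), Casp1, the inflammatory caspase (-1.21), Nipsnap3b (-1.17), Hprt, the purine salvage enzyme (-1.09), the chemokine Ccl9 (-1.09), Rpl22l1 (-1.09) and the centrin Cetn3 (-1.07). Hprt was at 137, 115, 151 and 114 CPM in mRNA and 65.7, 48.8, 68.2 and 60.4 CPM in total RNA libraries (adjusted p = 4.89e-04). Every total RNA library was below every mRNA library. With a test against the 2-fold bound itself (edgeR's glmTreat) 2 genes were lower, Gm23935 and Gm15564, against 198 higher. Among the largest rises was also n-R5s193, a 5S rRNA copy, with 0.0483, 0, 0 and 0 CPM in mRNA and 79.5, 55.3, 119 and 99.8 CPM in total RNA libraries.

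Haemoglobin genes, markers of red cells, had 0 of 3 tested called. Hba-a1 was at 7.33 ± 6.01 and 3.94 ± 2.03 CPM (adjusted p = 0.518).

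Whether polyA selection acted alike in both genotypes was asked with an interaction term. By edgeR's quasi-likelihood test, 0 of 11828 genes (0%) were called as having a difference between kinds that depended on genotype. At an unadjusted p under 0.05 there were 489 genes. On simulated counts this test recovered 71.4% of 4-fold differences, and smaller ones were not simulated. The 0 is therefore no evidence that smaller differences are absent. DESeq2's Wald test called 20 (0.169%). With the sorted sample as a block edgeR called 62 (0.524%), all with a smaller total-over-mRNA difference in Mut-labelled than in WT samples. Of those 62, 3 belonged to the non-polyadenylated classes, the histone genes Hist1h2ab, Hist1h2ae and Hist1h4f, named after their values were seen. They were 3 of 44 histone cluster genes tested, beside 0.524% of all genes. All 3 passed the filter only through total RNA libraries. Krt8 led the 62, at -1.33 (Mut-labelled minus WT, log2, adjusted p = 3.94e-05), with Fbln2 at -1.31, Col18a1 at -1.40, Spp1 at -1.32 and Card10 at -1.64 next.

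Krt8 and several others of these genes are known from epithelium rather than from blood. A list of 20 epithelium-type genes was drawn up after their values were seen, and so supports nothing by itself. Of 12 tested, 10 were higher in total RNA libraries and 0 lower, beside 5.4% and 0.372% of all tested genes. Under ERCC scaling none of these 10 passed. The sum over the 20 was 654, 666, 1051 and 964 CPM in mRNA and 3397, 2255, 1975 and 1893 CPM in total RNA libraries. The order of the genotypes thus reversed between the kinds of library. Krt8, a keratin, was at 144, 142, 252 and 216 CPM against 810, 587, 474 and 431 CPM (1.63 ± 0.239, adjusted p = 0.00119), and Krt18, its partner, at 244, 256, 367 and 344 CPM against 1097, 709, 676 and 598 CPM (1.35 ± 0.203, adjusted p = 0.00136). Epcam, Cldn3, Cldn4, Cldn7, Grhl2 and Spint1, other genes of epithelium on the list, were under 7 CPM in every library. Between genotypes within 1 kind of library, fewer cells of a type and less RNA per cell cannot be told apart in bulk samples. Same-named libraries of both kinds were read as 1 sorted sample, and the cause of the difference between kinds was not tested. The part of other cells in these values was not tested either.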

How the data were processed

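Total RNA and polyA-selected RNA of 4 sorted samples were sequenced, 8 libraries in all. The authors deposited raw counts per gene; the submitters' processing notes name TopHat, featureCounts, edgeR and the build mm9, without versions. The sources used here do not give the annotation release, the strand setting or the treatment of multiply mapped reads. Gene names, types, lengths and sequences came from GENCODE M21 (GRCm38), which matched 32919 of 37991 identifiers; since the builds differ, no coordinates are given. ERCC rows and 3 rRNA rows were left out of library totals.

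Counts were compared with edgeR 4.0.16 (R 4.3.3): TMM scaling, mean of at least 5 CPM over the 8 libraries, genotype and library kind as terms, quasi-likelihood test (two-sided), Benjamini-Hochberg adjustment over all genes tested. Genes were called at an adjusted p under 0.05 and a log2 fold change of at least 1. Named genes were the 10 largest called rises and falls at a mean of at least 20 CPM, the up to 4 most abundant tested members of each list, up to 5 interaction calls and the cell type markers; others were named, after their values were seen, where a count or contrast turned on them. Some genes that the rule names are not reported here. Class members and lists were chosen with earlier results of these data known. DESeq2 1.42.0, other scalings and filters, thinning of mRNA libraries to total RNA depth, a block on the sorted sample, each genotype alone and each library left out were alternatives. Same-named libraries deviated together (correlation of replicate differences across kinds 0.53 in WT and 0.46 in Mut-labelled samples). Across genotypes the correlation was 0.28 for WT mRNA with Mut-labelled total RNA and 0.32 for Mut-labelled mRNA with WT total RNA. Part of it was thus shared by libraries that have only the replicate number in common. The block pairs libraries by name. Replicates were not repeated deposits (chi-square per degree of freedom 2.65 to 95.5). On simulated counts the main test recovered 97.9% of 4-fold changes with 7 unchanged genes called. The interaction test recovered 71.4% of 4-fold differences with 11 unchanged genes called. Floors cover counting error only, since no molecular identifiers mark which reads are copies.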

Additional observations from a re-analysis of the deposited data

Results flagged for a closer look

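Counts in the 28S, 18S and 5.8S rRNA rows stood outside the gene comparison. They reached at least 16691791 in each total RNA library and were 0 in all 4 mRNA libraries. They are listed because they hold a signal in data that the comparisons above do not use. The mRNA libraries held at least 35096252 gene counts each, and why their rRNA rows are at exactly 0 was not tested.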

How the results depend on the processing

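Counts of genes higher and lower moved with the settings. Lower genes numbered 72 with the replicate block, 276 without TMM, 92 with filterByExpr, 143 with no filter, 15 at a mean of at least 20 CPM, 2 with glmTreat and 7 in Mut-labelled libraries alone. Higher genes numbered 153 under ERCC scaling, 1013 with filterByExpr, 1023 with no filter, 302 at a mean of at least 20 CPM, 198 with glmTreat and 258 in Mut-labelled libraries alone. Leaving out each library in turn gave 469 to 710 higher and 17 to 60 lower genes, with 17 without WT mRNA library 1 and 25 without Mut-labelled mRNA library 1. Genes whose difference depended on genotype numbered 62 with the replicate block and 20 with DESeq2, and 0 to 1 with a library left out.

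Without TMM the class medians (log2) were 7.40 for histone cluster genes, -0.35 for replacement histones, 0.24 for microRNA genes, -0.76 for mitochondrial mRNAs, 6.42 for mitochondrial rRNAs, -0.47 for snoRNA hosts, -0.35 for ribosomal proteins, -0.43 for their pseudogenes, -0.42 for the nuclear respiratory chain, -0.49 for mitochondrial ribosomal proteins, -0.56 for the proteasome, 0.35 for very long mRNAs, 0.23 for immediate early genes, -0.59 for splicing genes and -0.21 for Zfp genes. Under ERCC scaling, in the same order, they were 6.91, -0.94, -0.51, -1.22, 5.86, -0.9981, -0.84, -0.90, -0.89, -0.95, -1.02, -0.33, -0.53, -1.17 and -0.81, with 5.74 for snoRNAs, 8.28 for Rnu genes, 9.01 for other small RNAs, -0.51 for nuclear lncRNAs and -0.37 for rRNA-like entries. With filterByExpr they were 3.17 for snoRNAs, 1.25 for microRNA genes, -0.0677 for mitochondrial tRNAs, -0.37 for the proteasome, -0.027 for Zfp genes and -0.54 for haemoglobin. With no filter they were 7.36 for histone cluster genes, -0.28 for replacement histones, 2.33 for snoRNAs, 7.81 for Rnu genes, 0.77 for microRNA genes, -0.71 for mitochondrial mRNAs, 0.31 for mitochondrial tRNAs, -0.32 for snoRNA hosts, -0.37 for ribosomal protein pseudogenes, -0.27 for the respiratory chain, -0.41 for the proteasome, 0.38 for immediate early genes, -0.44 for splicing genes, -0.11 for Zfp genes and -0.9995 for haemoglobin. At a mean of at least 20 CPM they were 8.05 for histone cluster genes, 8.11 for snoRNAs, 0.39 for immediate early genes and 0.16 for Zfp genes. With mRNA libraries thinned they were 0.0575 for replacement histones, 7.04 for Rnu genes, 8.70 for other small RNAs and 0.34 for immediate early genes. WT libraries alone gave 8.01 for histone cluster genes. Mut-labelled libraries alone gave 7.004 for snoRNAs, 10.37 for other small RNAs, 0.40 for immediate early genes and 0.028 for haemoglobin, for which the replicate block gave 0.0558. The filters and the thinning changed which genes or counts entered, and the cause of the other moves was not tested.

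With a library left out, medians ranged from 7.59 to 7.87 for histone cluster genes, 5.72 to 6.71 for snoRNAs, 0.13 to 0.73 for microRNA genes, -0.15 to 0.0242 for ribosomal proteins, -0.24 to -0.0621 for the respiratory chain, -0.35 to -0.20 for the proteasome, 0.18 to 0.66 for immediate early genes, 0.01 to 0.10 for Zfp genes and -0.53 to 0.55 for haemoglobin. Without mitochondrial genes in the denominator, shares of total RNA gene counts were 0.270% for replacement histones, 0.610% for mitochondrial mRNAs, 6.57% for mitochondrial rRNAs, 1.25% for ribosomal proteins, 0.630% for their pseudogenes and 1.004% for Zfp genes. Among the 131 genes reported by name, 56 values lost and 19 gained the call. The sign turned in 46 genes, in 106 values, of which 0 belonged to a gene called in either fit.

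Under ERCC scaling the values that turned were H3f3b -0.51, H2afx -0.071, H2afj -0.31, Mir17hg -0.75, Mir142hg -0.25, Mir142b -0.51, Xist -0.51, Neat1 -0.23, Tug1 -0.77, Rpl3-ps1 -0.74, Mrpl38 -0.59, Kmt2d -0.0695, Akap13 -0.28, Dync1h1 -0.10, Huwe1 -0.47, Jun -0.72, Myc -0.83, Srrm2 -0.54, Son -0.67, Zfp106 -0.75, Zfp608 -0.43, Zfp704 -0.37, Hbb-bt -0.35, Slamf1 -0.72, Meis1 -0.52, Mecom -0.78, Camp -0.14, Cd68 -0.67 and Gp1ba -0.56. Without TMM they were Mir17hg -0.12, Tug1 -0.18, Rpl3-ps1 -0.23, Mrpl38 -0.0978, Jun -0.0863, Myc -0.21, Son -0.0586, Zfp106 -0.17, Hbb-bt -0.0667, Slamf1 -0.0446, Mecom -0.18 and Cd68 -0.0564. With filterByExpr they were Rpl3-ps1 -0.0378 and Myc -0.0256. With no filter they were Tug1 -0.0286, Rpl3-ps1 -0.0787, Myc -0.0668, Zfp106 -0.0217 and Mecom -0.0374. At a mean of at least 20 CPM they were mt-Nd5 0.0148 and Psmd3 0.0004. mt-Nd5 was 0.008 with RLE size factors and 0.0082 with DESeq2, and Hbb-bs was 0.0558 with the replicate block. With mRNA libraries thinned they were mt-Nd5 0.0152, Psmd3 0.0314, Hbb-bt -0.0303, Csf1r 0.27 and Erbb3 0.0028. WT libraries alone gave Tug1 -0.0204, Psmd3 0.16, Hbb-bs 0.62 and Csf1r 0.0074. Mut-labelled libraries alone gave mt-Nd5 0.10, Snhg17 0.0169, Psmd2 0.0334, Procr 0.18, Mecom -0.0447, Camp -0.0477, Gp1ba -0.0053 and Erbb3 0.17. With a library left out, ranges that crossed 0 were mt-Nd5 -0.0522 to 0.0746, Tug1 -0.0542 to 0.16, Rpl3-ps1 -0.0103 to 0.12, Psmd3 -0.0763 to 0.0703, Psmd2 -0.17 to 0.0069, Fos -0.68 to 0.32, Myc -0.0329 to 0.16, Hbb-bt -0.0667 to 0.59, Hbb-bs -0.45 to 0.51, Slamf1 -0.0406 to 0.43, Procr -0.44 to 0.0079, Hlf -0.17 to 0.0069, Cd79a -1.05 to 0.23, Cd4 -0.30 to 0.0861, S100a8 -1.11 to 0.40, S100a9 -1.50 to 0.24, Ltf -1.01 to 0.0657, Camp -0.0771 to 1.26, Cd68 -0.0599 to 0.43, Csf1r -0.22 to 0.13, Col1a1 -0.28 to 1.79, Col1a2 -0.99 to 0.61 and Erbb3 -0.17 to 0.0339. The cause of these changes of sign was not tested. The replicate block also brought mt-Tp, the 1 mitochondrial tRNA tested, past the call, and changed no other class count. Depth limits the total RNA side, where 1 count is worth 0.821 to 1.03 CPM, so that genes of a few CPM could not be compared.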
